A study of Mus musculus with 9 samples.

Results

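PPARγ binding was described at the genes of its own partners and relatives: the 3 retinoid X receptors (Rxra, Rxrb and Rxrg), which pair with PPARγ on DNA, and the other PPAR genes, Ppara and Ppard. A peak belonged to a gene if its midpoint lay in a window around that gene, 130 kb wide for Rxra, 30 kb for Rxrb, 80 kb for Rxrg, 120 kb for Ppara and 110 kb for Ppard. This gave 57 of the 66066 peaks counted in the whole series: 14 at Rxra, 5 at Rxrb, 4 at Rxrg, 22 at Ppara and 12 at Ppard. Peaks are numbered along the chromosome within each gene. They were chosen by position and not by binding values, but with earlier results of these data known.

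The study immunoprecipitated PPARγ from interscapular brown adipose tissue (iBAT) of male C57BL/6J mice aged 10 weeks, fed chow and kept at 22 °C in 12 h of light and 12 h of dark, to find out which binding sites oscillate over the day. Tissue was collected every 3 h at 8 time points, ZT0 being the onset of the light phase, and all groups were wild type and untreated, so they differ in time of day and in the library, which cannot be told apart. Each time point is 1 library from tissue pooled over mice (8 per pool by the ChIP methods, 4 per time point by the animal methods), so no time point has a replicate, and the error of a single value below covers counting only. The libraries held between 29572225 and 34264812 counts in peaks, and values are counts, given in the order of the time points and normalized by the trimmed mean of M values (TMM), which changed the libraries' scale by factors of 0.959 (ZT6) to 1.04 (ZT18).

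PPARs are ligand-activated nuclear receptors that bind DNA as heterodimers with an RXR, on a direct repeat of the half-site AGGTCA with a single base between the copies (DR1). PPARγ drives the differentiation of fat cells and their storage of lipid. PPARα, abundant in tissues that burn fatty acids, brown fat among them, switches on fatty acid oxidation, and PPARδ is found in most tissues and has related targets. RXRα and RXRβ are widespread, whereas RXRγ is found in fewer tissues, chiefly muscle and brain.

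The label of the tissue was checked against the positions of the peaks. A peak was counted for a gene only if its nearest start was that gene's, so peaks nearer to a neighbour's start were left out. Of 8 brown adipocyte genes, 7 had a PPARγ peak within 10 kb of a start, the exception being Prdm16, and all 5 general adipocyte genes had one, with summed normalized counts of 21837 to 32122 and of 40503 to 53361 over the 8 libraries. None of 4 macrophage genes (Adgre1, Cd68, Csf1r and Lyz2) had a peak by this count. Of 5 skeletal muscle genes 2 had one, with summed counts of 1010 to 1565 (Ckm, Myh4 and Tnnt3 did not). Of 4 liver genes 2 had one, with 1210 to 1724 (Alb and Ttr did not), and all 3 endothelial genes did, with 537 to 869. These sums are over unequal numbers of genes and peaks. Per kb of peak, the densest such peak of a gene had a median of 443 normalized counts for brown adipocyte and 860 for general adipocyte genes. It was 448 for muscle, 614 for liver and 186 for endothelial genes, so density did not set muscle and liver genes below brown adipocyte genes. A peak is no measure of expression, and binding in a minor cell type of the pool and binding in brown adipocytes cannot be told apart.

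Sequences were read from the GRCm38 assembly, which is mm10, the build of the peaks. The members were searched on both strands for the DR1, read as AGGTCA, any base and AGGTCA again, and 17 of 57 (29.8%) held a match with at most 2 mismatches among the 12 fixed bases, against 23.6% of all peaks. With at most 1 mismatch it was 7 of 57 (12.3%) against 4.99% of all peaks. Longer peaks hold more matches: 84.8% of the peaks within 20% of the length of the longest member, Ppara peak 1, held a match, against 14.6% of those as short as Rxra peak 7. The 7 closest matches are given because they are the sites most like the element to which PPARγ and RXR bind together, each with its flanks, 5′ to 3′ on the strand of the match and with the match in capitals.

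Rxrb peak 2, chr17:34027865-34027907, plus strand: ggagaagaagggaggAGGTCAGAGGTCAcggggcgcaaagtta
Rxrb peak 4, chr17:34036818-34036860, minus strand: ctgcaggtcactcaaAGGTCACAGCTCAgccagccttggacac
Rxra peak 3, chr2:27687598-27687640, plus strand: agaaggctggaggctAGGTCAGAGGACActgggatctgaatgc
Rxra peak 9, chr2:27719269-27719311, plus strand: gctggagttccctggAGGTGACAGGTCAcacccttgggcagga
Ppara peak 5, chr15:85747915-85747957, plus strand: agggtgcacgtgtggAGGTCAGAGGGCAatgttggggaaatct
Ppara peak 8, chr15:85759483-85759525, minus strand: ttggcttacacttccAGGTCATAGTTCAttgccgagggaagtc
Ppara peak 16, chr15:85787594-85787636, minus strand: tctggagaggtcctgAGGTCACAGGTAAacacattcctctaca

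The single match without a mismatch lay in Rxrb peak 2, in the neighbouring gene H2-Ke6. Counted from 1 at the 5′ end of the motif, with the motif's base first, the others differed by G10C in Rxrb peak 4, T11A in Rxra peak 3, C5G in Rxra peak 9, T11G in Ppara peak 5, G10T in Ppara peak 8 and C12A in Ppara peak 16. Among the strongest peaks of the 5 genes, those of Rxra, Rxrb and Rxrg held no match with at most 2 mismatches. Those of Ppara and Ppard held a match with 2, shown next because they carry the largest counts of their genes.

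Ppara peak 1, chr15:85718953-85718995, minus strand: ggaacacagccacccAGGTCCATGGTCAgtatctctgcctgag
Ppard peak 6, chr17:28235908-28235950, minus strand: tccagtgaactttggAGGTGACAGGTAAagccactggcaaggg

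The Ppara match differed from the motif by A6C and A8T and lay 2221 bp before the centre of a peak 10706 bp long. The Ppard match differed by C5G and C12A. A match is a description of letters and not a measured site.

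Of the 57 peaks, 8 (14.0%) oscillated by a 24-h cosine fit (edgeR quasi-likelihood test, Benjamini-Hochberg adjusted p under 0.05 over all peaks), where 13.4% of all 66066 peaks did. By JTK-cycle, a rank test against cosine curves of 21 and 24 h, 6 of 57 (10.5%) had an adjusted p under 0.05, against 11.6% of all peaks. The members' shares were near these backgrounds by both tests, and 4 peaks passed both: Rxrb peak 3 and Ppara peaks 1, 3 and 19. The JTK-cycle value is adjusted within a peak only, and none of the 66066 peaks passed once it was also adjusted over all peaks, while 16 of 57 members and 20687 of all peaks had an unadjusted cosine p under 0.05. The cosine count fell to 3 without the ZT6 library, 4 without ZT9, 5 without ZT12, 3 without ZT15 and 2 without ZT18, where 6.48%, 8.49%, 8.62%, 5.65% and 4.64% of all peaks passed. With library totals as the only scaling it was 5, where 13.5% of all peaks passed, and the JTK-cycle count was 10, where 12.3% did.

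**Figure D1:**
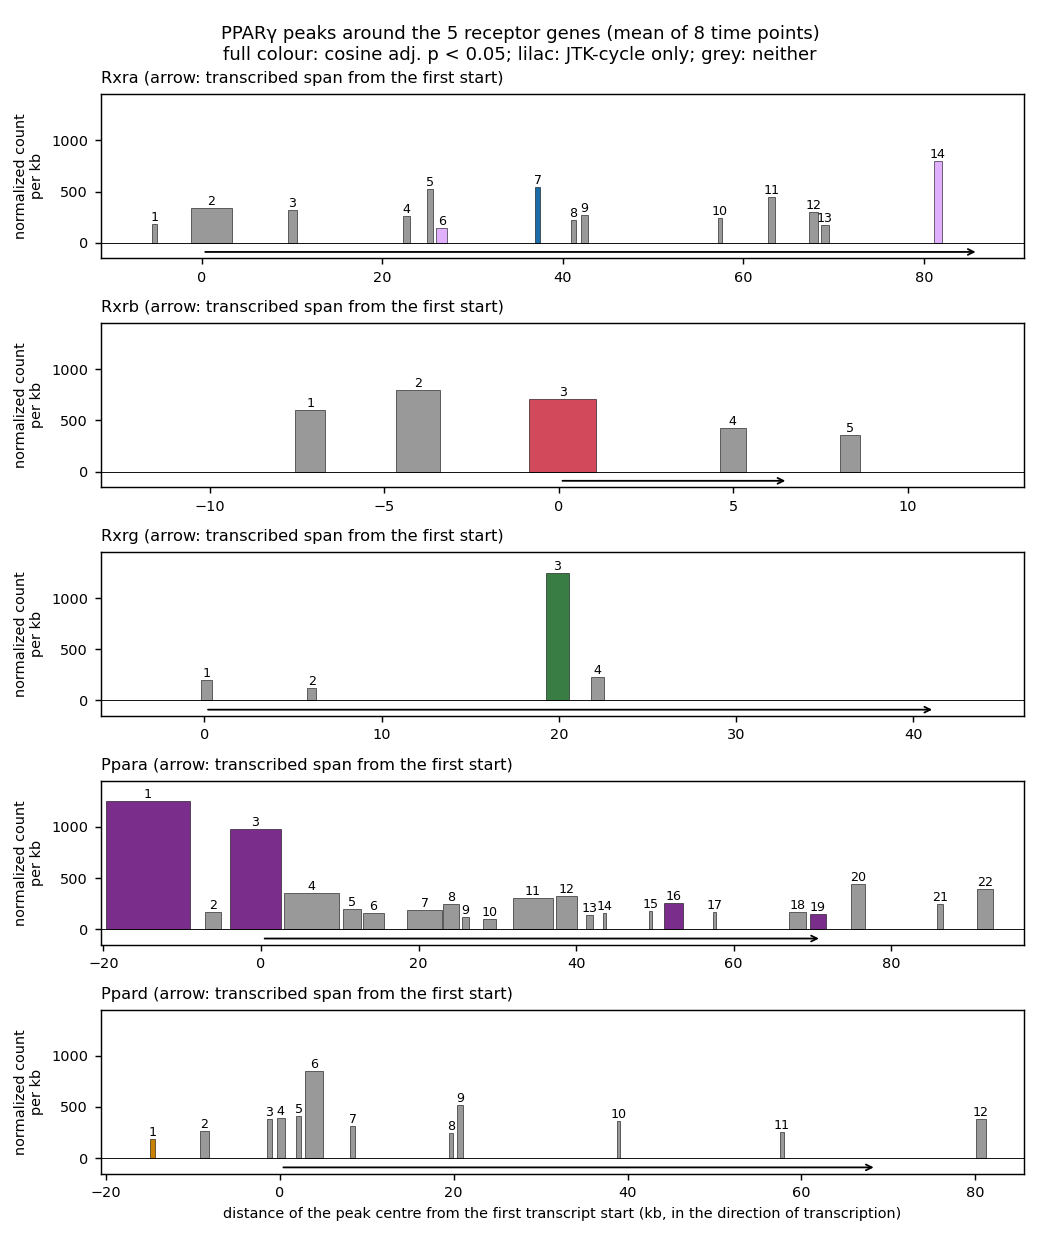
PPARγ peaks around the 5 genes, with distance from the first transcript start in kb on the x axis and mean normalized count per kb over the 8 time points on the y axis. Each bar is a peak drawn at its width, numbered as in the text, in full colour for a cosine adjusted p under 0.05, lilac for JTK-cycle only and grey for neither. Ppara peaks 1 and 3 and Rxrg peak 3 stand highest, at 1253, 981 and 1244 per kb.

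The strength of binding differed widely among the 57 peaks. Per kb of peak, to allow for length, the highest member was Ppara peak 1 at 1253 normalized counts per kb, followed by Rxrg peak 3 at 1244, both at percentile 99.5 of all peaks. Then came Ppara peak 3 at 981, Ppard peak 6 at 848, Rxra peak 14 at 799.8, Rxrb peak 2 at 797 and Rxrb peak 3 at 711. The weakest were Ppara peaks 10 and 9, at 104 and 118 per kb, where the median of all peaks was 269.6. Neighbours in this order overlap: Ppara peak 1 ranged by 1.65-fold over the day and Rxrg peak 3 by 1.29-fold.

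**Figure D2:**
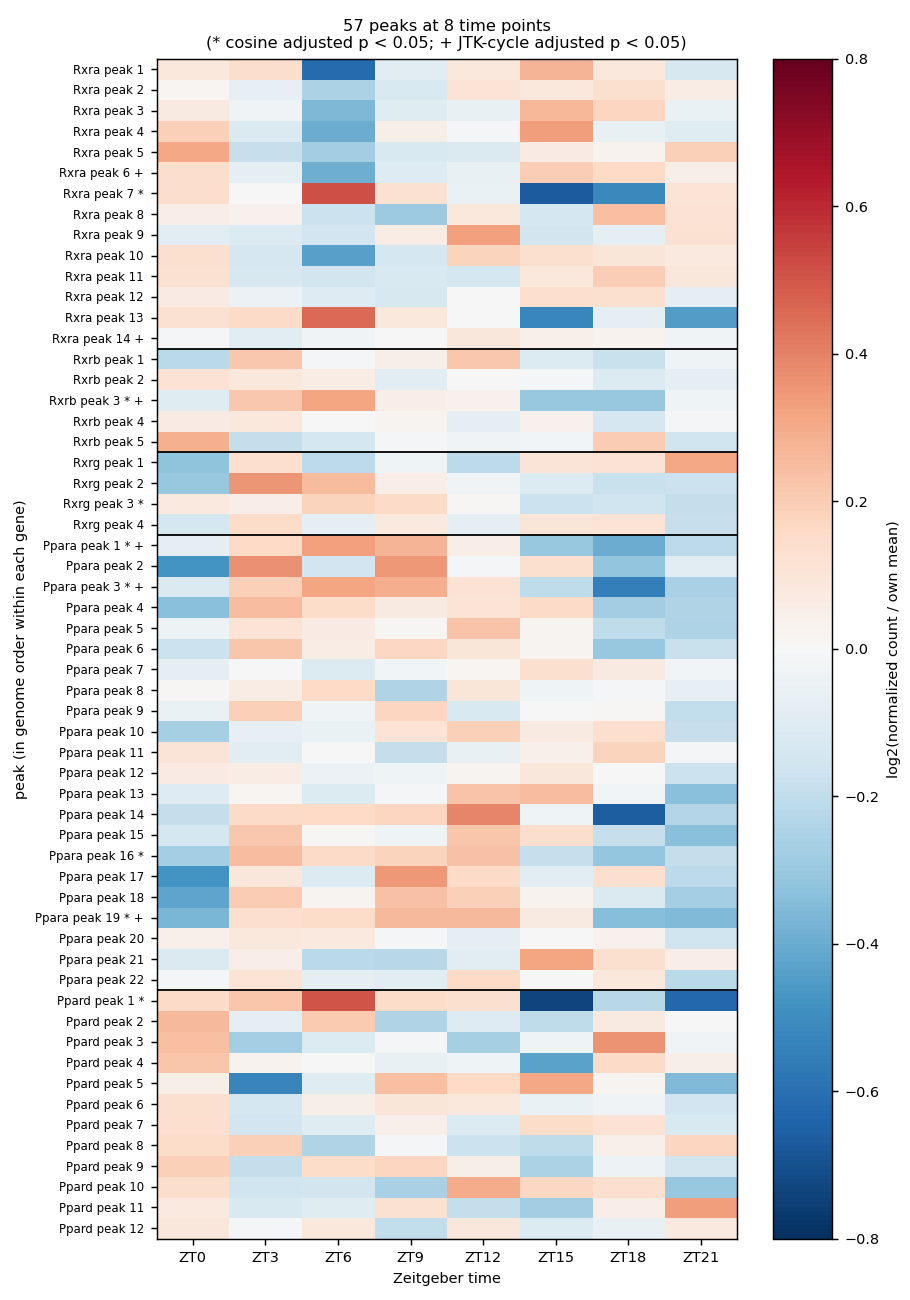
All 57 peaks (rows, in chromosome order within each gene) at the 8 time points (columns), coloured by log2 of the normalized count over the peak's own mean, with 1 library per column. Ppara peaks 1 and 3 are red from ZT3 to ZT12 and peak 4 from ZT3 to ZT15, while 9 of the 14 Rxra peaks have their lowest value at ZT6.

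Rxra encodes RXRα, a partner of PPARγ in fat cells. PPARγ bound it at 14 peaks, 13 of them inside the gene, and the sum over these was 5316, 4826, 4590.4 and 4819 from ZT0 to ZT9 and 5199, 5224, 5284 and 5151 from ZT12 to ZT21. It was lowest at ZT6 under each of the 5 scalings, the time at which, under TMM, the sums of Rxrb, Rxrg and Ppara were highest. Under TMM the sum over all peaks of the series was also highest at ZT6 and lowest at ZT18, 1.08-fold apart. Its part in the timing of the gene sums was not tested. The day's range of the Rxra sum was 1.16-fold under TMM and 1.24-fold with library totals only. Of the 14 peaks, 11 had their highest value between ZT12 and ZT21 and 3 between ZT0 and ZT9, where 51.1% of all peaks had theirs. The lowest value was at ZT6 in 9 of 14 (64.3%), against 16.4% of all peaks.

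Rxra peak 2, at chr2:27675972-27680573, spans the first start of the gene and reaches into intron 1, and held the most counts of the gene, 28.7% to 32.5% of the sum at each time. Its normalized counts were 1586, 1500.1, 1317 and 1442 from ZT0 to ZT9 and 1688, 1660.0, 1711 and 1635 from ZT12 to ZT21. They were lowest at ZT6, and each value from ZT12 to ZT21 was above each from ZT0 to ZT9. The 95% Wilson intervals of the lowest and highest values, 1249 to 1389 at ZT6 and 1630.2 to 1796 at ZT18, do not overlap, but they cover counting error only. The fitted peak-to-trough difference was 0.30 ± 0.09 on the log2 scale (SE, 8 libraries), but the adjusted p was 0.0946 by edgeR and 0.0826 by exact JTK-cycle, so oscillation was not called. Both tests called it with library totals as the only scaling (adjusted p = 0.0290 by edgeR and 0.00595 by exact JTK-cycle) and after cyclic loess (0.0197 and 0.00595), and JTK-cycle also without ZT12 (0.0417).

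Rxra peak 7, at chr2:27714165-27714698 in intron 1 and 3.85 kb after an internal start, went the other way. Its counts were 323, 294, 419 and 319.6 from ZT0 to ZT9 and 283, 185, 205 and 316 from ZT12 to ZT21. The highest value was at ZT6 and the lowest pair at ZT15 and ZT18, 2.27-fold apart (intervals 161 to 213 at ZT15 and 382 to 461 at ZT6). The cosine fit gave a peak at 4.4 ± 0.9 h, a difference of 0.82 ± 0.20 and an adjusted p of 0.0382, while exact JTK-cycle gave 0.212 (0.00595 without ZT3). The adjusted p was 0.0524 without ZT0, 0.171 without ZT6, 0.069 without ZT9, 0.0543 without ZT12, 0.184 without ZT15 and 0.169 without ZT18, and 0.0574 with library totals only.

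Rxra peak 13, at chr2:27745771-27746690 in intron 4, had a like profile of 172, 176, 216 and 168 from ZT0 to ZT9 and 158, 110.5, 149.8 and 116 from ZT12 to ZT21. It too was highest at ZT6 and lowest at ZT15, but its adjusted p was 0.0689. It lies 360 bp from Rxra peak 12, whose counts ran from 269 at ZT9 to 324 at ZT15. The fitted times of peaks 7 and 13, 4.4 ± 0.9 h and 5.4 ± 1.1 h, stand far from the 17.6 ± 1.2 h of peak 2, but the difference in time was not tested.

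JTK-cycle called 2 further peaks that the cosine test did not. Rxra peak 6, at chr2:27703210-27704394 in intron 1, had counts of 187, 161, 129 and 157 from ZT0 to ZT9 and 162, 194, 189 and 175 from ZT12 to ZT21. It was lowest at ZT6 and highest at ZT15, with an exact JTK-cycle adjusted p of 0.00595 and an edgeR adjusted p of 0.207, and after cyclic loess the JTK-cycle value was 0.0826. Rxra peak 14, at chr2:27758266-27759233 in intron 9, near the 3′ end of the gene, is the densest of the gene, at 799.8 per kb.

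Its counts were 768, 727, 758 and 773 from ZT0 to ZT9 and 823, 798, 790.5 and 758 from ZT12 to ZT21, a range of only 1.13-fold, smaller than that of all but 1.07% of peaks. JTK-cycle, which reads the order of the values and not their size, gave an exact adjusted p of 0.026, and edgeR gave 0.626. The JTK-cycle value was 0.161 without ZT3. The intervals of its lowest and highest values, 677 to 780.1 at ZT3 and 768 to 882 at ZT12, overlap.

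Among the rest of Rxra, peak 5 ran from 314 at ZT6 to 472 at ZT0, peak 3 from 250.4 at ZT6 to 387 at ZT15 and peak 4 from 157 at ZT6 to 262 at ZT15, all in intron 1. Peak 11, in intron 2, ran from 333 at ZT6 to 423 at ZT18. All of these were lowest at ZT6. The weaker peaks 8, 9 and 10 of intron 1 ran from 102 at ZT9 to 148 at ZT18, from 171 at ZT6 to 238 at ZT12 and from 80.6 at ZT6 to 123 at ZT12. Peak 1, 5.19 kb before the first start, ran from 60.2 at ZT6 to 111 at ZT15. The 10 Rxra peaks other than 2, 6, 7 and 14 had edgeR adjusted p-values of 0.0689 to 0.708.

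Rxrb encodes RXRβ and is a short gene of 6.59 kb in a crowded stretch of chromosome 17, so only 1 of its 5 peaks has its nearest start at Rxrb. The sum over the peaks was 3394, 3769.8, 3771 and 3424 from ZT0 to ZT9 and 3506, 3115, 3021 and 3290.0 from ZT12 to ZT21. It was high at ZT3 and ZT6 and low at ZT15 and ZT18, a range of 1.25-fold. The lowest time was ZT18 under all 5 scalings, while the highest was ZT6 under TMM and DESeq2's size factors and ZT3 under the other 3.

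Rxrb peak 3, at chr17:34030966-34032888, covers both starts of Rxrb and the start of Slc39a7, a zinc transporter gene read in the opposite direction. Its counts were 1279, 1589, 1705 and 1418 from ZT0 to ZT9 and 1404, 1109.6, 1108 and 1333 from ZT12 to ZT21. They rose from ZT0 to ZT6 and were lowest, and nearly equal, at ZT15 and ZT18, with intervals of 1043 to 1176 at ZT18 and 1627 to 1787 at ZT6. The cosine fit placed the peak at 5.4 ± 0.8 h with a difference of 0.53 ± 0.11 (adjusted p = 0.0155, edgeR), and exact JTK-cycle gave 0.00595. Left-out libraries raised the edgeR adjusted p to 0.0823 without ZT6, 0.0667 without ZT15 and 0.0972 without ZT18.

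The stretch between the start of Slc39a7 and the first start of Rxrb is shown because it lies under that oscillating peak, between both genes. It is 121 bases long and 71.1% G and C, holds 14 CpG pairs and has no AGGTCA on either strand. The 300-base promoter of that start holds none either, while 16.3% of all 32851 RefSeq promoters of 300 bases hold an AGGTCA.

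Rxrb and Slc39a7 promoter stretch, chr17:34031691-34031811, plus strand: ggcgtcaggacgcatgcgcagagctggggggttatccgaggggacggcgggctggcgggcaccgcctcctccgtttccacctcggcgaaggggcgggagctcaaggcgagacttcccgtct

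The other Rxrb peaks did not pass either test. Rxrb peak 2, with the unmismatched DR1 match shown above, lies over the start and exon 2 of H2-Ke6, an enzyme of steroid and fatty acid metabolism, at chr17:34027148-34028421. Its counts were 1098, 1077, 1059 and 958 from ZT0 to ZT9 and 1014, 1009.8, 942 and 964 from ZT12 to ZT21, a range of 1.17-fold (adjusted p = 0.546, edgeR). Peak 1 covers the starts of Ring1, a Polycomb subunit gene, and of 2 microRNA genes, Mir219a-1 and Mir219c, and ran from 435 at ZT0 to 586 at ZT3. Peak 4, in intron 7 of Rxrb, ran from 292 at ZT18 to 340.4 at ZT3, and peak 5, in intron 1 of the collagen gene Col11a2, from 178 at ZT3 to 247 at ZT0.

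Rxrg encodes RXRγ. Its signal was nearly all in a single peak, Rxrg peak 3, at chr1:167617633-167618927. This peak held 79.7% to 85.1% of the counts of the 4 peaks, a share that no scale factor per library changes. It sits in intron 2 of the long transcript, and its centre is 15 bp after the start of the short transcript. At 1244 normalized counts per kb it ranked 359 of 66066 peaks.

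Its counts were 1698, 1673, 1824 and 1789 from ZT0 to ZT9 and 1622, 1433, 1442 and 1411 from ZT12 to ZT21. The 5 values from ZT0 to ZT12 were all above the 3 from ZT15 to ZT21, with intervals of 1339 to 1488 at ZT21 and 1743 to 1908 at ZT6. The cosine fit placed the peak at 6.1 ± 0.9 h with a difference of 0.37 ± 0.09 and an adjusted p of 0.037, while exact JTK-cycle gave 0.212. The edgeR adjusted p was 0.12 without ZT6, 0.0907 without ZT9, 0.0581 without ZT12, 0.113 without ZT15, 0.138 without ZT18 and 0.098 without ZT21, and it was 0.111 with library totals only and 0.196 after cyclic loess.

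The bases before that internal start are shown because they lie under the strongest RXR peak of the set. They hold 1 AGGTCA half-site, in capitals, 55.2% G and C and 7 CpG pairs, and no DR1 match with at most 2 mismatches.

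Rxrg internal promoter, chr1:167618015-167618264, plus strand: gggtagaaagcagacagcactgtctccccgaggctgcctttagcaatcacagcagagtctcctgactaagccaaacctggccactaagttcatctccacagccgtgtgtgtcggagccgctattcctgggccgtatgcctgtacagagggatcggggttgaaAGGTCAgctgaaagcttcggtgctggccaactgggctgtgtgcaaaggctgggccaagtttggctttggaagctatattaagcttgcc

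By contrast the first start of Rxrg, 19.9 kb upstream, carried the weak peak 1, at chr1:167598196-167598813 over the 5′ UTR in exon 1. Its counts were 101, 138, 109 and 123 from ZT0 to ZT9 and 109, 135, 136 and 156 from ZT12 to ZT21, 1.55-fold from lowest to highest, with an adjusted p of 0.557 by edgeR and 1 by exact JTK-cycle. Per kb it held 203 against 1244 at the internal start. Peaks 2 and 4, in introns 1 and 2, ran from 53.4 at ZT0 to 84.1 at ZT3 and from 139 at ZT21 to 174 at ZT3.

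**Figure D3:**
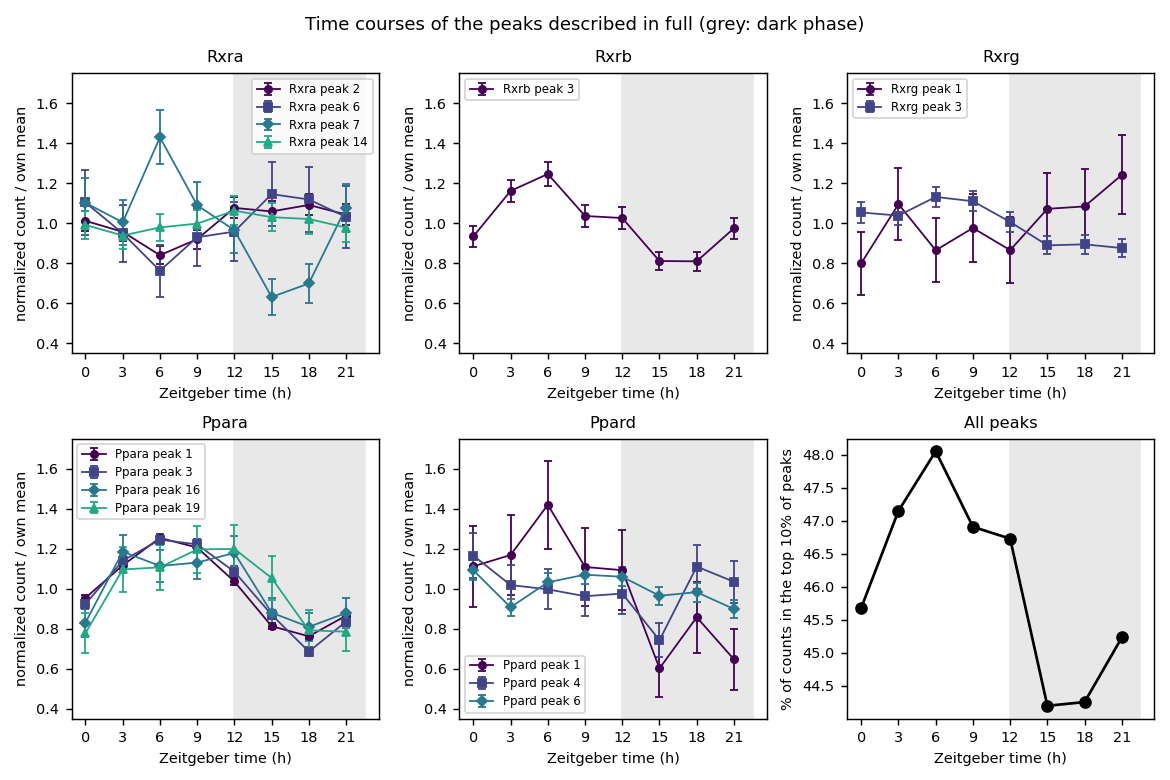
Time courses of the 14 peaks described in full, as normalized count over the peak's own mean (y axis) against Zeitgeber time in h (x axis), with 95% counting error bars, 1 library per point and the dark phase in grey. The last panel gives how much of a library's counts lay in the 10% of peaks with the most counts, highest at ZT6 (48.1%) and lowest at ZT15 (44.2%).

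Ppara encodes PPARα and had the largest summed counts of the 5 genes. Per kb of peak, Ppara held 502, below Rxrb (637) and Rxrg (623) and above Ppard (455) and Rxra (342). Of the 22 peaks of Ppara, 10 have their nearest start at that gene. Its 22 peaks cover 51.3% of the window, and the sum over them was 28877, 34319, 36126 and 35195 from ZT0 to ZT9 and 32540.1, 28072, 25159.6 and 26873 from ZT12 to ZT21. It was high from ZT3 to ZT9, was lowest at ZT18 and ranged by 1.44-fold under TMM. The lowest time was ZT18 under all 5 scalings, and the highest was ZT6 under 4 of them. After cyclic loess, which evens out changes shared by peaks of like strength, the highest was ZT9 and the range 1.20-fold.

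The first 6 peaks stand almost end to end over 35.3 kb at chr15:85715843-85751184, with gaps of 151 to 1856 bp, and held between 69.9% (ZT18) and 79.2% (ZT6) of the counts of the gene. Ppara peaks 1 and 3 alone held between 57.6% (ZT18) and 68.1% (ZT6). These shares do not depend on a scale factor, and they moved with time as the sum did. The percent of a library's counts lying in the 10% of peaks with the most counts was also highest at ZT6 (48.1%) and low at ZT15 and ZT18 (44.2% and 44.3%), and its part in the timing of these strong peaks was not tested.

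Ppara peak 1, at chr15:85715843-85726548, is an intergenic region 14.4 kb before the first Ppara start and 13.9 kb from the microRNA gene Mirlet7b, its nearest curated start. With a mean of 13411 normalized counts it ranked 6 of all 66066 peaks. Its counts were 12783, 14968, 16805 and 16158 from ZT0 to ZT9 and 13886, 10888, 10207 and 11590.5 from ZT12 to ZT21. The 3 values from ZT3 to ZT9 were the highest with ZT12 next, and the 3 from ZT15 to ZT21 the lowest, with intervals of 10007 to 10411 at ZT18 and 16557 to 17057 at ZT6.

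It had the smallest p of the members. The fitted peak was at 6.4 ± 0.4 h, the difference 0.69 ± 0.07 on the log2 scale, and the adjusted p 0.000239 by edgeR and 0.00595 by exact JTK-cycle. It passed the edgeR test under all 14 alternatives, with adjusted p-values of up to 0.0297 and fitted peaks between 6.20 and 6.65 h. The ratio of its highest to its lowest value was 1.65 under TMM, 1.52 with library totals only and 1.24 after cyclic loess.

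Ppara peak 3, at chr15:85731656-85738046, covers both starts of the gene, and with a mean of 6272 ranked 129 of all peaks. Its counts were 5790.3, 7145, 7806 and 7656 from ZT0 to ZT9 and 6799.6, 5451, 4296 and 5235 from ZT12 to ZT21. They rose to ZT6 and ZT9 and then fell to ZT18, 1.82-fold below the highest. The fitted peak was at 6.9 ± 0.4 h, the difference 0.78 ± 0.08 and the adjusted p 0.000385 by edgeR.

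Exact JTK-cycle gave 0.000744, the smallest value that 8 time points allow. This peak also passed the edgeR test under all 14 alternatives, with adjusted p-values of up to 0.00766. Its highest-to-lowest ratio was 1.69 with library totals only and 1.49 after cyclic loess. The 300 bases around the second start hold no AGGTCA, and their closest DR1 match has 4 mismatches. Elsewhere in the peak, at chr15:85732794-85732806, lies a DR1 match with 2 mismatches.

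Between and after these, the signal was lower and less regular. Ppara peak 4, at chr15:85738527-85745456 in intron 2, had counts of 1948, 2919, 2722 and 2592 from ZT0 to ZT9 and 2651, 2742, 2027 and 2086 from ZT12 to ZT21. It was lowest at ZT0, ZT18 and ZT21, and its adjusted p was 0.0666 by edgeR and 1 by exact JTK-cycle. Peak 2, between the 2 strong regions, ran from 250.4 at ZT0 to 449 at ZT3. Peaks 5 and 6 of intron 2 ran from 398 at ZT21 to 554 at ZT12 and from 356 at ZT18 to 513 at ZT3.

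Farther into intron 2 the profile of the start was not seen. Ppara peak 11, at chr15:85767534-85772654, with a mean of 1543 the fourth in counts of the gene, had counts of 1658, 1455, 1539 and 1353 from ZT0 to ZT9 and 1479, 1588, 1745 and 1528 from ZT12 to ZT21. Its highest value was at ZT18 and its lowest at ZT9, but its adjusted p was 0.27. Peaks 7, 8 and 12 of the same intron ran from 781 at ZT6 to 918 at ZT15, from 414 at ZT9 to 547 at ZT6 and from 767 at ZT21 to 919 at ZT15. The weaker peaks 9, 10 and 13 there ran from 96.5 at ZT21 to 126 at ZT3, from 141 at ZT0 to 193 at ZT12 and from 105 at ZT21 to 157 at ZT15.

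The other peaks that passed the cosine test lay in the second part of the gene. Ppara peak 16, at chr15:85786682-85789119 in intron 4, with the single-mismatch DR1 match shown above, had counts of 523, 747, 702 and 712 from ZT0 to ZT9 and 743, 554, 509.6 and 553 from ZT12 to ZT21. The 4 values from ZT3 to ZT12 were all above the other 4, with a fitted peak at 7.6 ± 0.9 h and an adjusted p of 0.0306 by edgeR (0.467 by exact JTK-cycle). The edgeR value was 0.055 without ZT6, 0.0617 without ZT9, 0.0518 without ZT12, 0.0705 without ZT15 and 0.133 without ZT18, and 0.0647 with library totals only.

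Ppara peak 19, at chr15:85805213-85807323 over the 3′ UTR in exon 8, had counts of 248, 349.9, 353 and 382 from ZT0 to ZT9 and 383, 336, 253 and 250.5 from ZT12 to ZT21. It was low at ZT0, ZT18 and ZT21 and highest at ZT9 and ZT12, with a fitted peak at 9.1 ± 0.8 h, later than that of peak 1, and a difference of 0.69 ± 0.14. The adjusted p was 0.0183 by edgeR and 0.026 by exact JTK-cycle, and 0.0745 without ZT18 by edgeR. The JTK-cycle value was 0.161 without ZT0, 0.161 without ZT6, 0.161 without ZT18 and 0.161 without ZT21. Its nearest start is that of Cdpf1, 5.43 kb away.

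Peak 18, 465 bp before it in the same 3′ UTR, had counts of 284, 439, 386 and 448 from ZT0 to ZT9 and 435, 389.6, 353 and 315 from ZT12 to ZT21. It shared the low values of ZT0 and ZT21 (adjusted p = 0.0821, edgeR). The small intronic peaks 14, 15 and 17 ran from 48.9 at ZT18 to 102 at ZT12, from 62.6 at ZT21 to 92.3 at ZT12 and from 50.3 at ZT0 to 89 at ZT9. Beyond the gene, peak 20 over the start of Cdpf1 ran from 706 at ZT21 to 837 at ZT3, peak 21 at the start of Pkdrej from 169 at ZT9 to 245 at ZT15, and peak 22 upstream of Ttc38 from 689 at ZT21 to 892 at ZT12. None of these 7 passed either test, and the 18 Ppara peaks other than 1, 3, 16 and 19 had edgeR adjusted p-values of 0.0666 to 0.967.

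Ppard encodes PPARδ, the most widespread of the PPARs. The sum over its 12 peaks was 4818, 4007, 4474 and 4464 from ZT0 to ZT9 and 4457, 4088, 4436 and 4080.4 from ZT12 to ZT21. It was highest at ZT0 and lowest at ZT3, neighbouring times, under all 5 scalings, with a range of 1.20-fold. No Ppard peak passed JTK-cycle with all 8 libraries, and the single one that passed the cosine test lies in a neighbouring gene.

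Ppard peak 6, at chr17:28235626-28237721 in intron 1 and 3.92 kb after the start, held 39.1% to 42.6% of the counts. Its values were 1939, 1611, 1833 and 1901 from ZT0 to ZT9 and 1882, 1713, 1745 and 1595 from ZT12 to ZT21. They stayed within 1.22-fold with no block of high or low times, and the adjusted p was 0.627 by edgeR and 1 by exact JTK-cycle. At 848 per kb it is denser than 96.5% of all peaks, and its fitted difference of 0.13 ± 0.11 compares with 0.69 ± 0.07 at Ppara peak 1.

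Ppard peak 4, at chr17:28232386-28233322 over the start, had counts of 429, 375, 367 and 354 from ZT0 to ZT9 and 359, 273, 409 and 381 from ZT12 to ZT21. The value at ZT15 stood below the other 7, and the adjusted p was 0.337 by edgeR, while exact JTK-cycle gave 0.0417 without that library. Peak 5, in intron 1, was opposite at that time, with 281, 189, 255 and 322 from ZT0 to ZT9 and 305, 337, 277 and 214 from ZT12 to ZT21. Its highest value was at ZT15 and its lowest at ZT3 (adjusted p = 0.119, edgeR).

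Ppard peak 1, at chr17:28217856-28218443 in intron 3 of Def6, a guanine nucleotide exchange factor of immune cells, had the largest range of the members, 2.36-fold. Its counts were 120.1, 126, 153 and 119.7 from ZT0 to ZT9 and 118, 64.9, 92.6 and 69.8 from ZT12 to ZT21. ZT6 was highest and ZT15 and ZT21 lowest, with intervals of 51.1 to 82.4 at ZT15 and 131 to 179 at ZT6. The fitted peak was at 5.7 ± 0.9 h and the adjusted p 0.0349 by edgeR (0.0826 by exact JTK-cycle, and 0.0417 without ZT18 or without ZT21). The edgeR value was 0.14 without ZT6, 0.0569 without ZT9, 0.118 without ZT15, 0.0516 without ZT18 and 0.071 without ZT21, and 0.0546 with library totals only.

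The remaining Ppard peaks were nearly flat or uneven. Peak 9, the second in counts per kb at 517, lies in intron 2 and ran from 288 at ZT15 to 391 at ZT0, and peaks 7 and 8 of the same intron from 181 at ZT3 to 223 at ZT15 and from 103 at ZT6 to 139 at ZT3. Peak 3, just before the start, ran from 193 at ZT3 to 299 at ZT18, and peak 2, over coding exon 7 of Def6, from 225 at ZT9 to 317 at ZT0. Peak 10, at the start of 1810013A23Rik inside intron 2, ran from 88.3 at ZT21 to 133 at ZT12, peak 11 of intron 3 from 90.1 at ZT15 to 138 at ZT21 and peak 12 at the start of the DNA repair gene Fance from 389 at ZT9 to 475 at ZT0. The edgeR adjusted p-values of these and peak 5 were 0.119 to 0.755.

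**Figure D4:**
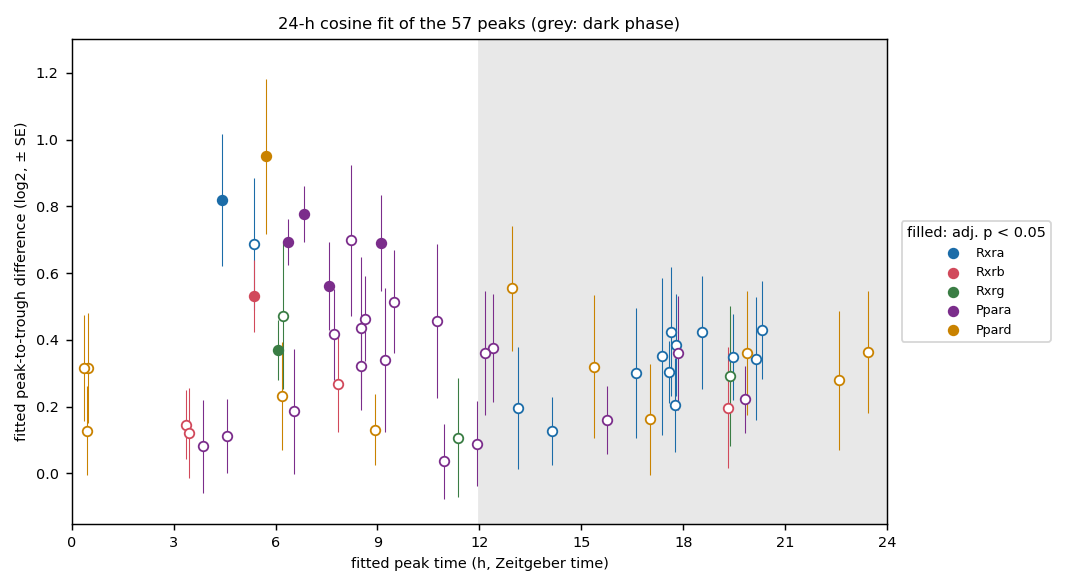
Fitted peak time in h (x axis) and fitted log2 peak-to-trough difference with its SE (y axis) of the 57 peaks from the 24-h cosine fit, coloured by gene, with filled points for adjusted p under 0.05 and the dark phase in grey. All 8 filled points lie between 4.43 h (Rxra peak 7) and 9.10 h (Ppara peak 19).

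All 8 peaks called by the cosine test had their fitted peak in the light phase, from 4.4 ± 0.9 h for Rxra peak 7 to 9.1 ± 0.8 h for Ppara peak 19. Among all 8842 called peaks, 5009 (56.7%) did. The largest differences were those of Ppard peak 1 (0.95 ± 0.23), Rxra peak 7 (0.82 ± 0.20) and Ppara peak 3 (0.78 ± 0.08). The 2 with the smallest SE were Ppara peaks 1 and 3, which also hold the most counts, and theirs are the calls that held under all 14 alternatives.

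**Figure D5:**
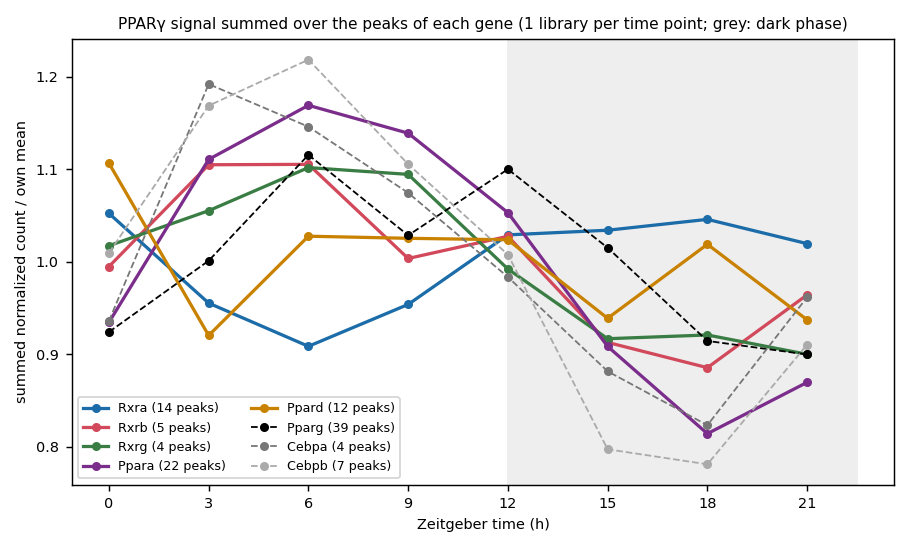
Normalized counts summed over the peaks of each gene, over the gene's own mean (y axis), against Zeitgeber time in h (x axis), with 1 library per point and the dark phase in grey. Under TMM, Ppara, Rxrb and Rxrg are highest at ZT6, where Rxra is lowest, while under some other scalings their highest value is at ZT3 (Rxrb) or ZT9 (Rxrg, Ppara). The sum over all peaks of the series, not drawn, was also highest at ZT6 under TMM. Pparg, Cebpa and Cebpb, with 20 kb on each side, are drawn as dashed lines.

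The genes nearest in kind were set beside these without a test. At Pparg itself 5 of 39 peaks passed the cosine test (12.8%) and 4 JTK-cycle, and the sum ran from 21834 at ZT21 to 27069 at ZT6, 1.24-fold, with a mean of 24261 against 30895 at Ppara. At the adipogenic partner genes Cebpa and Cebpb it was 2 of 4 and 4 of 7 by each test, with ranges of 1.45-fold and 1.56-fold. Ppara, at 1.44-fold, came next, and Rxra had the smallest range under TMM, at 1.16-fold. With library totals only the order changed. Rxra then ranged by 1.24-fold, below Ppara (1.33-fold) but above Ppard (1.23-fold), Rxrb (1.185-fold) and Rxrg (1.17-fold).

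Peaks of other genes of the pathway were counted by nearest start. Over all peaks, 13.4% passed the cosine test, 56.7% of these with a fitted peak before ZT12, and 11.6% passed JTK-cycle. For 14 receptors that pair with RXR, 19 of 152 peaks (12.5%) passed the cosine test, 9 with a fitted peak before ZT12 and 10 after. JTK-cycle called 16 (10.5%). Pparg is among the 14, with 33 of the 152 peaks and 4 of the 19 cosine calls. The median level of the 152 peaks was 275 normalized counts, against 224 for all peaks. Nr4a1, an orphan receptor that can pair with RXR, had 4 of 4 peaks called by both tests, and its strongest ran from 1468 at ZT15 to 3122 at ZT6. The strongest peak of Nr1h3, the gene of the oxysterol receptor LXRα, ran from 1629 at ZT15 to 2261 at ZT6 (adjusted p = 0.0333, edgeR), whereas that of Thrb, a thyroid hormone receptor gene, stayed between 2807 and 3147 (adjusted p = 0.882).

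For 16 coactivators and corepressors, 18 of 176 peaks (10.2%) passed the cosine test, 12 with a fitted peak before ZT12 and 6 after. JTK-cycle called 19 (10.8%), and the median level was 237. None of the 13 Ncoa1, 7 Ncoa2 or 13 Ncoa3 peaks passed the cosine test, and 7 of 54 at Ppargc1a, the gene of the coactivator PGC-1α, did. For 17 genes that supply or break down retinoids, the source of RXR ligands, 18 of 76 peaks (23.7%, against 13.4% of all peaks) passed the cosine test. Of these, 10 had a fitted peak before ZT12 and 8 after. JTK-cycle called 14 (18.4%, against 11.6% of all peaks), and the median level was 237. The 18 cosine calls came from 4 genes, Dhrs3 with 9 of 28, Dhrs9 with 4 of 7, Rdh10 with 3 of 8 and Aldh1a2 with 2 of 2. The share thus rests on few genes, and no test of the list was made.

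The strongest retinoid gene peaks differed in time. That of Dhrs9, a retinol dehydrogenase gene, ran from 859.6 at ZT15 to 1643 at ZT3. That of Dhrs3, 57.4 kb from the start, ran from 5039 at ZT15 to 6317 at ZT6. The strongest peak of Aldh1a2, which makes retinoic acid, lies 101.5 kb from the start and ran from 1261 at ZT15 to 1915 at ZT6. The strongest Rdh10 peak, 122.8 kb from the start, ran the other way, from 1093 at ZT3 to 1549 at ZT15 (adjusted p = 0.0176, edgeR). These genes were chosen for mention after their values were seen.

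Finally, the genes whose summed PPARγ counts followed each member most closely over the 8 time points were found among 7233 genes, by Pearson's r of log2 sums, as a description. They were Sowahc (r = 0.979) and Wdr26 (0.965) for Rxra, Tbc1d13 (0.983) and Ggnbp2 (0.978) for Rxrb, 4930431P22Rik (0.990) and Kat8 (0.989) for Rxrg, Agpat2 (0.993) and 5930430L01Rik (0.991) for Ppara, and 4921515E04Rik (0.968) and E230016K23Rik (0.948) for Ppard. The points share 8 libraries and the genes were picked as the highest of all, so no p is given. Agpat2 encodes an enzyme of triglyceride synthesis.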

How the data were processed

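PPARγ ChIP-seq was done on iBAT chromatin with 8 µg of antibody. Per the labels and the study's methods, the authors mapped reads to mm10 with BWA 0.7.17, called peaks with MACS2 2.1.2, and used HTSeq 1.99.2 for counting. A peak was retained when 6 or more of the 8 libraries had it at a false discovery rate below 0.05. The deposited values are raw counts per peak, with no normalization. How duplicate reads were handled is not given in the sources used here, and the input library of ZT12 was not used here.

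From these counts, TMM factors, the 24-h cosine test (cosine and sine terms tested together, edgeR 4.0.16 quasi-likelihood, 5 residual degrees of freedom, Benjamini-Hochberg adjustment over all 66066 peaks) and JTK-cycle (exact null, periods of 21 and 24 h, adjusted over 15 combinations of period and phase) were computed. No peak was filtered out. With 1 library per time point, departures from the cosine are the spread that the cosine test uses, and the common dispersion was 0.0116. Both tests were also run on simulated counts with planted 24-h cosines. Those counts had no shift between libraries in the share held by strong peaks, so they cannot show how the tests act under such a shift. Wilson 95% intervals cover counting error only: reads are not independent molecules. Positions were read from curated RefSeq transcripts of GRCm38.p6 and promoters from the RefSeq promoter table of that build. A peak centre decides its exon or intron.

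The members and gene lists were chosen with earlier results of these data known. Described in full were, per gene, the peak with the highest mean, the peak nearest a start, each peak that passed a test and the peak with the largest range among those with a mean of at least 100. Further peaks given with every value were chosen after their values were seen. Alternatives were other scalings (library totals, DESeq2 1.42.0 size factors, upper quartile, cyclic loess by limma 3.58.1), the DESeq2 likelihood ratio test, a mean count of at least 100, stricter thresholds, a single period, each library left out and members by nearest start.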

Additional observations from a re-analysis of the deposited data

How the results depend on the processing

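The number of members that passed the cosine test was 8. It was 5 with library totals only (13.5% of all peaks passed) and 2 at a threshold of 0.01 (3.4% of all peaks). It was 4 when members were limited to the 35 whose nearest start is the named gene (13.4% of all peaks). Leaving out a library gave 2 (ZT18) to 10 (ZT3), with 4.64% to 16.96% of all peaks passing. Under DESeq2's size factors, upper-quartile factors, cyclic loess and the mean count minimum it was again 8, where 11.1% to 15.1% of all peaks passed. It was 9 by DESeq2's likelihood ratio test, where 15.5% did. For JTK-cycle, 6 members became 10 with library totals only, which shared 6 with the reported set, and 12.3% of all peaks passed. They became 10 with a period of 24 h only, which shared 5, and 15.0% of all peaks passed. Leaving out a library gave 5 to 9, with 11.2% to 16.4% of all peaks passing. The cause of these moves was not tested, beyond the lost sample or the stricter limit itself. A DR1 match was held by 17 members with at most 2 mismatches and by 7 with at most 1. Over the values of the 14 peaks described in full and the DR1 count, 336 alternative values kept their side of the threshold or stayed within counting error, 31 cosine calls were lost, 2 were gained, 10 values moved and none reversed. Of the 336, 173 were highest-to-lowest ratios and 163 cosine values, the latter partly of peaks never called. The called peaks were less stable. Of 14 alternatives, Rxrg peak 3 kept its call in 6, Rxra peak 7 in 7, and Ppara peak 16 and Ppard peak 1 in 8. Rxrb peak 3 kept it in 11, Ppara peak 19 in 13 and Ppara peaks 1 and 3 in all 14. The JTK-cycle values of the 14 described peaks under each scaling, the count minimum and each left-out library were added after seeing the data: 169 kept their side of the threshold, 6 calls were lost and 7 gained. No paired analysis was possible because each time point has 1 library and the labels give no replicate numbers. Counting error limits the weaker members: the smallest count of a member was 47 reads.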
